A study of Homo sapiens with 6 samples.

Results

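Genes of the EGF receptor family and of its ligands were examined in HCC2814 cells. They were the receptors EGFR, ERBB2 and ERBB3, the ligands HBEGF, TGFA, AREG, BTC, EPGN and EREG, and the feedback inhibitor ERRFI1. These 10 genes were chosen by name from the 17448 genes listed, with earlier results of these data known. HCC2814 is a human lung squamous cell carcinoma (LUSC) line. RNA-seq covered 3 WT samples, which carried control guide RNA (sgControl), and 3 MLST8-KO samples, which carried guide RNA against MLST8 (sgMLST8). MLST8 is a subunit shared by mTORC2 and mTORC1. For a western blot of HCC2814 cells, the paper lists 3 numbered entries each of sgControl and sgMLST8. Whether the sequenced samples of a group carried the same guide is not stated in the sources used here. Both groups were selected with antibiotic after receiving their guides and grown in DMEM with 10% serum, so both went through CRISPR and selection. The methods name no cloning step for these cells, and replicates came from independent experiments. The p-values therefore measure the spread between those experiments. They include differences between guides only if the samples of a group carried different guides. An effect shared by all samples of a group, such as that of a shared guide, cannot be told apart from the effect of MLST8 loss.

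EGFR and its relatives are receptor tyrosine kinases that pair on ligand binding, phosphorylate each other and pass the signal through GRB2, SHC1 and RAS to ERK, and in parallel through PI3K to AKT. Their ligands are made as membrane-bound precursors and are released by proteases, chiefly ADAM17 and ADAM10. ERBB2 binds no known ligand and acts as a partner, ERBB3 binds neuregulins and has a weak kinase, and ERRFI1 (MIG6) binds the active EGFR kinase and blocks it. In squamous epithelia the ligands act on the cells that make them and on their neighbours.

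Estimated counts summed to between 14381673 and 15744154 per sample, and 12951 genes were retained after the filter on low counts. MLST8 itself was checked first: its counts were 874, 827 and 842 in WT and 396, 629 and 401 in MLST8-KO replicates 1 to 3. It was therefore lower in every MLST8-KO sample (log2 fold change -0.96 ± 0.15 SE, adjusted p = 0.00339). All 8 squamous markers examined were higher in MLST8-KO samples, with a summed level of 12553 to 18596 CPM (library-scaled counts after TMM scaling) in WT and 21278 to 23641 CPM in MLST8-KO samples. The summed liver markers reached 239 CPM in MLST8-KO replicate 1, against 0.577 to 6.50 CPM in the WT samples and 2.75 CPM in the lowest MLST8-KO sample. FGA, the liver marker with the most counts, had 1083, 17 and 10 counts in MLST8-KO replicates 1 to 3. In WT replicates 1 to 3 it had 30, 14 and 2. Without MLST8-KO replicate 1, HBEGF, TGFA and ERRFI1 were still called lower and ERBB2 higher, while AREG had a log2 fold change of -0.80 and was no longer called. The summed alveolar and adenocarcinoma markers were at 1.80 to 4.05 CPM in WT and 8.96 to 10.7 CPM in MLST8-KO samples, nearly all from NKX2-1, which rose (log2 fold change 1.81, adjusted p = 0.00281). The summed immune markers were at 53.5 to 78.3 CPM in WT and 40.6 to 55.3 CPM in MLST8-KO samples, nearly all from CD68, which fell (log2 fold change -0.45, adjusted p = 0.0413), while the defining leukocyte marker PTPRC had at most 1 count. The summed stromal markers were at 31.1 to 33.0 and 32.5 to 35.2 CPM, and the summed endothelial markers at 2.98 to 3.58 and 1.92 to 2.97 CPM. The part of the squamous, NKX2-1 and CD68 shifts in the results that follow was not tested.

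Of the ligand genes chosen, the 3 most abundant were lower in MLST8-KO cells, as was the inhibitor. ERBB2 was higher, and EGFR was not called changed. Of the 10 genes, 8 passed the filter and 2 (EREG and EPGN) did not. As the 10 genes were chosen with earlier results of these data known, the shares below describe them and are not a test. By edgeR's quasi-likelihood test, 5 of the 8 were called, where 32.0% of all genes tested were. Of these, 4 fell (HBEGF, TGFA, AREG and ERRFI1), where 15.7% of all genes tested fell. ERBB2 was the 1 gene that rose, where 16.3% of all genes tested rose, and EGFR, ERBB3 and BTC were not called. In 5 genes every MLST8-KO sample lay below every WT sample on the CPM scale (24.2% of all genes tested) and in 1 gene every one lay above (24.8%). The median log2 fold change over the 8 genes was -0.51, beside 0.00 over all genes tested. In bulk RNA, fewer cells expressing a gene and less RNA per cell cannot be told apart. Leaving out replicate 1 of both groups, an alternative chosen after seeing the data, still called 4 genes lower and 1 higher.

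**Figure D1:**
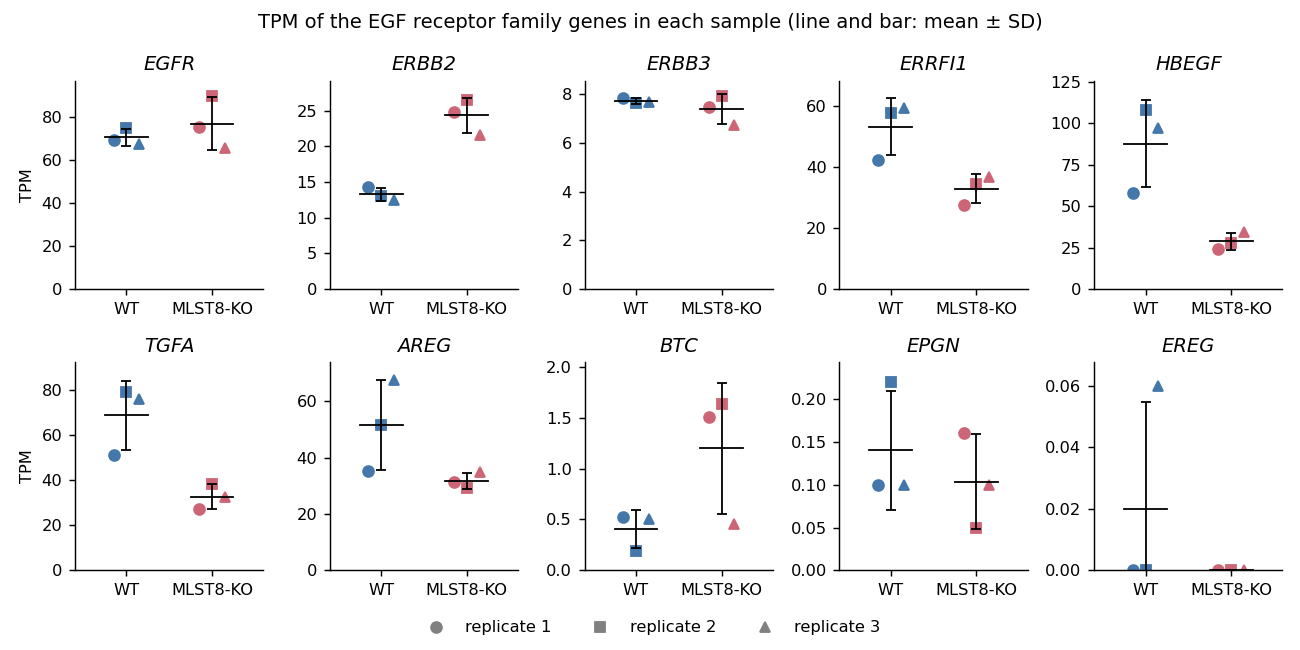
TPM (a level scaled by gene length and depth) of the 10 genes in each of the 6 samples, with WT in blue and MLST8-KO in red, a symbol for each replicate and the mean ± SD as line and bar. HBEGF, TGFA, AREG and ERRFI1 lie lower in all 3 MLST8-KO samples than in any WT sample, ERBB2 lies higher in all 3, and EPGN and EREG lie near 0. Each panel has its own axis from 0.

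The receptors were led by EGFR. The EGFR gene (7:55019021-55211628, plus strand, GRCh38) gave a level of 70.6 ± 4.10 TPM in WT and 77.1 ± 12.4 TPM in MLST8-KO samples (mean ± SD, n = 3), above 87.8% of the genes detected. Its CPM values were 226, 245 and 231 in WT and 226, 267 and 207 in MLST8-KO replicates 1 to 3, so the groups overlapped. The log2 fold change was -0.01 ± 0.10 SE with a 95% interval from -0.22 to 0.21 (adjusted p = 0.967), and its sign changed with the scaling, to 0.048 under upper quartile scaling and 0.11 on log2(TPM + 1).

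ERBB2 (17:39687914-39730426, plus strand) rose. Its CPM values were 35.9, 32.5 and 32.4 in WT and 57.6, 60.8 and 52.4 in MLST8-KO replicates 1 to 3. The 3 MLST8-KO samples were close together and well above the 3 WT samples. The rise was 1.69-fold (log2 fold change 0.76 ± 0.09 SE, 95% interval 0.56 to 0.96, adjusted p = 0.00281), and it was rank 629 among the 2116 higher genes by size. On the opposite strand ERBB2 is overlapped by MIEN1 and PGAP3, and whether the counting used strand is not stated in the sources used here. MIEN1 had a log2 fold change of -0.24 (adjusted p = 0.0522) and PGAP3 one of 0.26 (adjusted p = 0.0668).

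ERBB3 (12:56076799-56103505, plus strand) was the weakest of the 3 receptors, at 7.73 ± 0.106 TPM in WT and 7.39 ± 0.612 TPM in MLST8-KO samples. Its CPM values were 21.8, 20.5 and 21.3 in WT and 17.8, 19.4 and 17.2 in MLST8-KO samples. The groups did not overlap on that scale, but they did in TPM, where MLST8-KO replicate 2 (7.94) exceeded all WT samples. The log2 fold change was -0.22 ± 0.10 SE (adjusted p = 0.108, unadjusted p = 0.0477 by edgeR's model), and no alternative called it. As shares of the summed receptor TPM, EGFR made up 77.1% ± 1.33 in WT and 70.7% ± 1.43 in MLST8-KO samples, ERBB2 14.5% ± 1.04 and 22.4% ± 1.03, and ERBB3 8.45% ± 0.421 and 6.83% ± 0.411. The ratio of EGFR to ERBB2 in TPM went from 5.35 ± 0.467 to 3.16 ± 0.215, and that of ERBB2 to ERBB3 from 1.71 ± 0.0994 to 3.29 ± 0.0625. These sums and ratios follow from the levels above and were not tested.

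**Figure D2:**
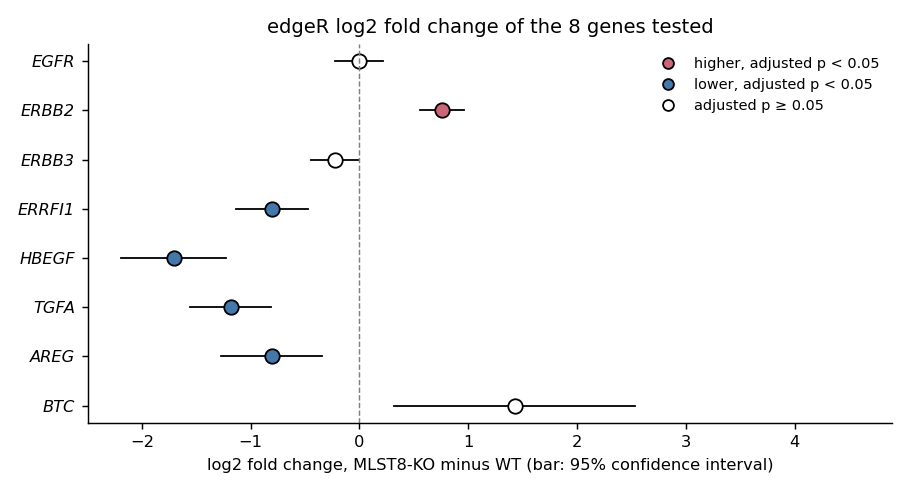
edgeR log2 fold change (MLST8-KO minus WT) of the 8 genes tested, with its 95% confidence interval as a bar, filled red or blue where the adjusted p is under 0.05. HBEGF (-1.71) and TGFA (-1.18) lie farthest below 0, ERBB2 (0.76) lies above 0, and the interval of BTC (0.32 to 2.54) is the widest of the 8.

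In TPM, the ligand with the highest mean in WT cells was HBEGF (5:140332843-140346631, minus strand), the heparin-binding ligand of EGFR and ERBB4. Its mean was 87.8 ± 26.3 TPM, beside 68.9 ± 15.3 TPM for TGFA, while TGFA had the higher CPM. HBEGF was at 71.1, 132 and 124 CPM in WT replicates 1 to 3 and at 27.7, 31.1 and 40.9 CPM in MLST8-KO replicates 1 to 3. Every MLST8-KO sample was below the lowest WT sample, and WT replicate 1 stood apart from the other two. HBEGF fell 3.27-fold (log2 fold change -1.71 ± 0.22 SE, 95% interval -2.19 to -1.23, adjusted p = 0.00281), rank 53 of the 2030 lower genes by size.

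TGFA (2:70447280-70554193, minus strand), a ligand of EGFR first described in transformed cells, was at 119, 182 and 182 CPM in WT and at 58.6, 80.9 and 73.2 CPM in MLST8-KO replicates 1 to 3. The groups did not overlap, and WT replicate 1 was again the lowest of its group. TGFA was 2.27-fold lower (log2 fold change -1.18 ± 0.17 SE, 95% interval -1.56 to -0.81, adjusted p = 0.00281), rank 158 of the lower genes.

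AREG (4:74445134-74455009, plus strand), amphiregulin, a low-affinity ligand of EGFR, was at 21.9, 32.2 and 43.6 CPM in WT and at 18.5, 16.6 and 20.9 CPM in MLST8-KO replicates 1 to 3. The groups did not overlap, but WT replicate 1 was only just above the highest MLST8-KO sample, and the WT values spread over the widest range of the 4 lower genes relative to their mean. AREG was 1.75-fold lower (log2 fold change -0.80 ± 0.21 SE, 95% interval -1.27 to -0.34, adjusted p = 0.0174). Its call was lost when WT replicate 2 (adjusted p = 0.0542), MLST8-KO replicate 1 (adjusted p = 0.0611) or the second MLST8-KO replicate (adjusted p = 0.0756) was left out, with log2 fold changes of -0.82, -0.80 and -0.73 in those fits. Of the fits that left out 1 sample, the one without WT replicate 3 gave the smallest fall of AREG (-0.54, adjusted p = 0.0222), still called. Without WT replicate 2 or MLST8-KO replicate 1, 971 and 979 genes were called higher over all genes, against 2116 with all samples.

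AREG lies on chromosome 4 with 3 other ligands of the family: EPGN (4:74308473-74315307), EREG (4:74365143-74388751) and BTC (4:74744759-74794686, minus strand). The window that spans them, of 486 kb, holds 4 protein-coding genes, all of them members. BTC, betacellulin, a ligand of EGFR and ERBB4, had 11, 4 and 10 counts in WT and 30, 34 and 10 counts in MLST8-KO replicates 1 to 3. MLST8-KO replicates 1 and 2 were above all WT samples and replicate 3 was inside them. Its log2 fold change was 1.43 ± 0.50 SE (95% interval 0.32 to 2.54, adjusted p = 0.0513), not called, and it passed the threshold in 5 of the 14 alternatives that could be run for it, with adjusted p from 0.0214 to 0.180 over them. On log2(TPM + 1), its log2 fold change was 0.61. Among the fits that called it were those without WT replicate 1 (adjusted p = 0.0354) and without the third MLST8-KO replicate (adjusted p = 0.0214).

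EREG, epiregulin, had 0, 0 and 2 counts in WT and 0, 0 and 0 in MLST8-KO samples. EPGN, epigen, had 2, 4 and 2 counts in WT and 3, 1 and 2 in MLST8-KO samples. Both were under or near the 3 counts that a count of 0 allows (0.191 to 0.209 CPM per sample), and no difference between the groups was detectable at this depth. These limits cover counting error only. Within the window, AREG was therefore the 1 gene with more than 34 counts in any sample.

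To show the sequence beside these levels, the 250 bases before the RefSeq start of a gene were read for the 5 called genes and for EREG, the neighbour of AREG near the floor. RefSeq (GRCh38.p14) held such a window for 9 of the 10 genes. These 4 motifs were searched on both strands: the AP-1 motif TGANTCA, the cAMP response element TGACGTCA, the forkhead motif TGTTTAC and the TATA motif TATAAA. Of 34788 promoters of the same length, 6.59% held TGANTCA, 1.64% the cAMP response element, 2.98% forkhead and 10.8% TATA. Matches are in capitals, 5′ to 3′ on the strand of the gene. The windows lie at chr4:74444886-74445135 (AREG, plus), chr4:74364895-74365144 (EREG, plus), chr5:140346604-140346853 (HBEGF, minus), chr2:70553827-70554076 (TGFA, minus, the more upstream of its windows), chr1:8026310-8026559 (ERRFI1, minus) and chr17:39687844-39688093 (ERBB2, plus).
AREG: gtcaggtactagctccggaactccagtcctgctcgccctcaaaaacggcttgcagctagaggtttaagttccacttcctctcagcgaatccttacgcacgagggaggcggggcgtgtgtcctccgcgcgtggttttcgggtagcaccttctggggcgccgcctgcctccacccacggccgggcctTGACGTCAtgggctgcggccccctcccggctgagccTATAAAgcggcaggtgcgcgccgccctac
EREG: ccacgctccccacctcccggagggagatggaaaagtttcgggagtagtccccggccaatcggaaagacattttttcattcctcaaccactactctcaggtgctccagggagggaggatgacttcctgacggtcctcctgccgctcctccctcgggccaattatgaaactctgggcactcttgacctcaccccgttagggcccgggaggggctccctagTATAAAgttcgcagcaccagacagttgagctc
HBEGF: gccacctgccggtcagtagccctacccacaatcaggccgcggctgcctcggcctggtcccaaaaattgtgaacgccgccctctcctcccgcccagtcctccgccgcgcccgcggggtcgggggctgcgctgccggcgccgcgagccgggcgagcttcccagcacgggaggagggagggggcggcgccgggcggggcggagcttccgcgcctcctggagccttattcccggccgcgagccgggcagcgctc
TGFA: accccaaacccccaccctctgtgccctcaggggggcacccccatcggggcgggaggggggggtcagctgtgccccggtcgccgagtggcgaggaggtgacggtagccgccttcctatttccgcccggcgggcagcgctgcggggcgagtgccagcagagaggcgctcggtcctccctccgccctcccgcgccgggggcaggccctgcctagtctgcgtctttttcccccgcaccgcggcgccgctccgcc
ERRFI1: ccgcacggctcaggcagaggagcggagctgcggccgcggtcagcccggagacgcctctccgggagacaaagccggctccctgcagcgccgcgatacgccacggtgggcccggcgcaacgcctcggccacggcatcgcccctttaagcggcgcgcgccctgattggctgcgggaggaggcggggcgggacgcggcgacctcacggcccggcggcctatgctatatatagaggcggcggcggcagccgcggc
ERBB2: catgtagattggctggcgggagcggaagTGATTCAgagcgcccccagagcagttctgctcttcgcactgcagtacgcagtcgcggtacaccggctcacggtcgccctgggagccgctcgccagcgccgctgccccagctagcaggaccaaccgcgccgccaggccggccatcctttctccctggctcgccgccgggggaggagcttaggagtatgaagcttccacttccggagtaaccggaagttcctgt

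AREG held the cAMP response element at positions -65 to -58 before its start and TATA at -29 to -24, while EREG held TATA at -32 to -27. ERBB2 held 1 match to TGANTCA, with the letters TGATTCA, at -222 to -216. HBEGF, TGFA and ERRFI1 held none of the 4 motifs in these windows, which says only that those letters are not in these bases. BTC held a forkhead match at -231 to -225 and EPGN TATA at -29 to -24. Of the EGFR windows, the first, just before the start of the gene, held none of the motifs. The other, at chr7:55109589-55109838, lies inside the gene, before an internal start. It held TGAGTCA at -232 to -226, TGACTCA at -136 to -130 and TATA at -146 to -141 and at -36 to -31. Some RefSeq starts differ from the gene starts in GENCODE, the source of the gene coordinates above. By those coordinates the TGFA window printed lies inside its gene, as does most of the ERBB2 window. The HBEGF, AREG and EREG windows reach into their genes. A match is a description of the letters, and no factor was measured at these windows.

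ERRFI1 (1:8004404-8026308, minus strand), the feedback inhibitor, was lower too. It was at 70.5, 96.1 and 102 CPM in WT and at 42.7, 52.0 and 59.0 CPM in MLST8-KO replicates 1 to 3. All 3 MLST8-KO samples were below all WT samples. ERRFI1 was 1.75-fold lower (log2 fold change -0.81 ± 0.15 SE, 95% interval -1.14 to -0.47, adjusted p = 0.00545). Its TPM relative to that of EGFR was 0.754 ± 0.136 in WT and 0.436 ± 0.110 in MLST8-KO samples.

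Per length, the summed ligand level was lower in MLST8-KO cells and HBEGF took a smaller share of it. Summed over the 6 ligand genes, WT replicates 1 to 3 held 145, 239 and 241 TPM and MLST8-KO replicates 1 to 3 held 84.6, 97.0 and 103 TPM. The groups did not overlap, and WT replicate 1 lay between the other WT samples and the MLST8-KO samples. HBEGF made up 41.8% ± 2.87 of the sum in WT and 30.3% ± 2.86 in MLST8-KO samples. AREG made up 24.6% ± 3.21 and 33.8% ± 3.58, and TGFA 33.3% ± 1.91 and 34.5% ± 4.31. The ratio of HBEGF to AREG in TPM was 1.64, 2.09 and 1.44 in WT and 0.770, 0.954 and 0.991 in MLST8-KO samples, above 1 in each WT sample and below 1 in each MLST8-KO sample. In WT cells the mean levels fell in the order HBEGF (87.8 ± 26.3 TPM), TGFA (68.9 ± 15.3 TPM) and AREG (51.5 ± 16.1 TPM). Their SDs over samples overlap between neighbours, but each WT sample showed the same order. In WT replicates 1 to 3, HBEGF was at 58.1, 108 and 97.3 TPM and TGFA at 51.3, 79.4 and 76.0 TPM. AREG was at 35.4, 51.7 and 67.6 TPM. In MLST8-KO cells TGFA (32.7 ± 5.55 TPM), AREG (31.8 ± 2.82 TPM) and HBEGF (28.9 ± 5.20 TPM) lay within their SDs of one another, and their order differed between samples. The summed ligand TPM divided by the EGFR TPM was 2.95 ± 0.770 in WT and 1.25 ± 0.270 in MLST8-KO samples. These sums follow from the genes chosen and carry no test.

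**Figure D3:**
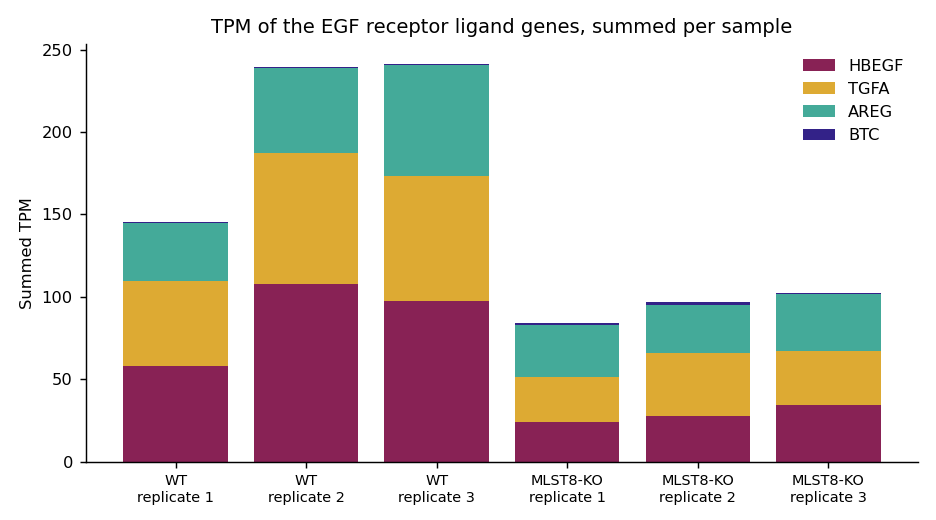
Summed TPM of the ligand genes in each sample, stacked by gene, with EREG and EPGN too low to draw. The WT samples reach 145 to 241 TPM and the MLST8-KO samples 84.6 to 103 TPM, and the HBEGF segment shrinks more than the AREG segment.

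WT replicate 1 was the lowest WT sample for each of the 4 lower genes, and it was so in 78.2% of all 2030 lower genes (1588). The MLST8-KO mean was 0.467 of WT replicate 1 for HBEGF and 0.260 of the mean of WT replicates 2 and 3. The corresponding ratios were 0.596 and 0.389 for TGFA, 0.851 and 0.491 for AREG, and 0.727 and 0.517 for ERRFI1. Without WT replicate 1, the log2 fold changes of HBEGF, TGFA, AREG and ERRFI1 were -1.94, -1.36, -1.03 and -0.95. Without WT replicate 3 they were -1.61, -1.09, -0.54 and -0.70, and all 4 genes were still called.

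**Figure D4:**
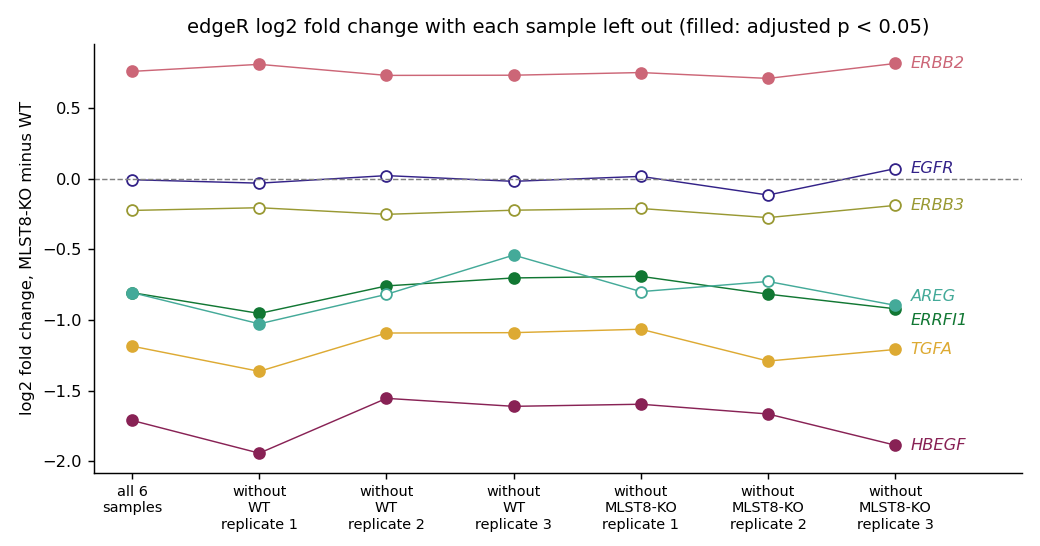
edgeR log2 fold change of 7 of the genes with all 6 samples and with each sample left out in turn, filled where the adjusted p is under 0.05. HBEGF, TGFA, ERRFI1 and ERBB2 stay filled throughout, AREG is open in 3 of the 6 fits that leave out a sample, and EGFR lies on both sides of 0.

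The genes whose pattern over the 6 samples was most like each member were found among 11187 genes with a mean of at least 50 counts, by the root mean square difference of log2 CPM centred over the samples. HBEGF was nearest to PGF (0.160), HAS3 (0.175) and RASD1 (0.188), and TGFA to IL1A (0.0948), ZSWIM4 (0.0986) and RAC2 (0.101). AREG was nearest to ORMDL3 (0.0674), KBTBD4 (0.0760) and KIAA0513 (0.0782), and ERRFI1 to PHLDA1 (0.0644), TXNL4B (0.0848) and SERPINE2 (0.0867). ERBB2 was nearest to HNRNPLL (0.0443), XK (0.0518) and ARID1B (0.0544), and EGFR to ZNF260 (0.0181), TGOLN2 (0.0235) and SLC38A1 (0.0270). HBEGF had the most distant neighbours of the 6 members, and no neighbour was itself a member. All genes share the same 6 libraries and their depth.

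The other genes of the pathway were taken from lists that were also chosen with earlier results of these data known. The shares of calls in these lists, given beside those of all genes, are therefore descriptions and not tests. The lists held 59 genes, of which 58 were listed and 56 were tested. Of these, 8 rose (14.3%, beside 16.3% of all genes tested), 15 fell (26.8%, beside 15.7%) and 33 were not called, with a median log2 fold change of -0.08. In 9 genes every MLST8-KO sample was above every WT sample (16.1%, beside 24.8% of all genes tested) and in 17 every one was below (30.4%, beside 24.2%). Of the 23 genes called, 9 kept their call under every alternative, 14 lost it under at least 1 and 0 changed direction.

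The other receptor and ligands of the family were not called. NRG1, a neuregulin and ligand of ERBB3, was at 1065, 898 and 561 counts in WT and 892, 1073 and 1140 counts in MLST8-KO samples (log2 fold change 0.19, adjusted p = 0.431). Its level was 27.0 ± 7.83 TPM in WT and 32.5 ± 3.42 TPM in MLST8-KO samples, the latter near those of TGFA, AREG and HBEGF. NRG1 was not part of the summed ligand level. NRG4 (0.16) and EGF (-0.07) were tested too, and ERBB4 had 1 to 4 counts per sample.

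Of the 8 genes of ligand shedding, 1 rose (12.5%, beside 16.3% of all genes tested) and 3 fell (37.5%, beside 15.7%), with a median log2 fold change of -0.00. TIMP3, an inhibitor of ADAM17, rose from 1.01 ± 0.766 to 3.41 ± 1.18 CPM (log2 fold change 1.72, adjusted p = 0.0166). RHBDL2, a rhomboid protease, fell (-0.83, adjusted p = 0.00900), as did RHBDF1 (-0.38, adjusted p = 0.0450), an iRhom that carries ADAM17 to the surface, and FRMD8 (-0.31, adjusted p = 0.0463), which stabilises iRhoms. ADAM17 (-0.19, adjusted p = 0.0887) and ADAM10 (0.19, adjusted p = 0.121), the proteases themselves, were not called. The calls of RHBDF1 and FRMD8 were lost without WT replicate 2 (adjusted p = 0.132 and 0.112), WT replicate 3 (0.0944 and 0.0966), MLST8-KO replicate 1 (0.176 and 0.173) or MLST8-KO replicate 2 (0.102 and 0.133). That of TIMP3 was lost without WT replicate 2 (0.0698) or MLST8-KO replicate 1 (0.0737), and that of RHBDL2 was kept in each such fit. TIMP3 moved to a log2 fold change of 2.49 without WT replicate 1 and to 0.74 on log2(TPM + 1). RHBDF1 was also lost on log2(TPM + 1) (0.106), on log2(TPM + 0.1) (0.102) and under upper quartile scaling (0.0686). FRMD8 was lost in the same fits (0.154, 0.148 and 0.0804), with DESeq2 (0.0603), with no filter (0.0522) and with at least 10 counts in every sample (0.0518).

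Of the 14 genes of receptor brakes and turnover, 2 rose and 2 fell (14.3% each, close to the 16.3% and 15.7% of all genes tested), with a median of -0.11. LRIG3 (0.72, adjusted p = 0.0240), of the LRIG family of receptor regulators, and the ubiquitin ligase CBLB (0.44, adjusted p = 0.0180) rose. LRIG2 (-0.59, adjusted p = 0.00691) and UBASH3B (-0.51, adjusted p = 0.0162), a phosphatase that binds CBL, fell. Without WT replicate 2 the adjusted p of LRIG3, CBLB and UBASH3B was 0.0708, 0.0835 and 0.0727. LRIG3 was also lost without MLST8-KO replicate 1 (0.0611), 2 (0.0793) or 3 (0.0767), CBLB without MLST8-KO replicate 2 (0.0755), and UBASH3B without MLST8-KO replicate 1 (0.0661) or 3 (0.0506). LRIG2 was kept in each such fit. UBASH3B was lost on log2(TPM + 1) (0.0850) and log2(TPM + 0.1) (0.0965) too. The log2 fold change of ERRFI1 lay below that of every gene of this list.

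Of the 17 genes of the adaptors and the RAS-ERK cascade, 3 rose (17.6%, beside 16.3% of all genes tested) and 4 fell (23.5%, beside 15.7%), with a median of -0.05. The docking protein GAB1 (0.74, adjusted p = 0.0115), the phospholipase PLCG1 (0.63, adjusted p = 0.00381) and HRAS (0.28, adjusted p = 0.0376) rose. The kinases MAP2K1 (-0.49, adjusted p = 0.0114) and MAP2K2 (-0.49, adjusted p = 0.00795) and the adaptors GRB2 (-0.31, adjusted p = 0.0220) and SHC1 (-0.25, adjusted p = 0.0315) fell. PLCG1 and MAP2K2 were called with each sample left out. MAP2K1 was lost without MLST8-KO replicate 1 (adjusted p = 0.0539), GAB1 without MLST8-KO replicate 2 (0.0540), and GRB2 without WT replicate 2 (0.0667), MLST8-KO replicate 1 (0.0801) or MLST8-KO replicate 2 (0.0779). SHC1 was lost in those same fits (0.106, 0.141 and 0.0673) and without WT replicate 3 (0.0514). HRAS was lost in all but the fit without WT replicate 1, with adjusted p of 0.161 and 0.0761 without WT replicates 2 and 3 and of 0.136, 0.0559 and 0.0969 without MLST8-KO replicates 1, 2 and 3. On log2(TPM + 1) and log2(TPM + 0.1), GRB2 (adjusted p = 0.0845 and 0.0864) and SHC1 (0.183 and 0.184) were not called, nor was SHC1 under upper quartile scaling (0.0641) or HRAS with DESeq2 (0.0509). Leaving out replicate 1 of both groups ended the calls of SHC1 (0.122), RHBDF1 (0.0918) and FRMD8 (0.130).

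Of the 14 genes of ERK output, 2 rose (14.3%, beside 16.3% of all genes tested) and 6 fell (42.9%, beside 15.7%), with a median of -0.40. The AP-1 subunit FOSL1 (-1.08, adjusted p = 0.00306), the phosphatases DUSP4 (-1.03, adjusted p = 0.0377) and DUSP5 (-0.92, adjusted p = 0.00281), SPRY4 (-0.91, adjusted p = 0.00699), PHLDA1 (-0.83, adjusted p = 0.00412) and IER3 (-0.44, adjusted p = 0.0179) fell. SPRED1 (0.54, adjusted p = 0.00718) and SPRY1 (0.92, adjusted p = 0.0479), both inhibitors of the cascade, rose. The other 6 genes were not called. The 4 of them with the highest counts were SPRED2 (-0.07, adjusted p = 0.521), DUSP6 (-0.36, adjusted p = 0.0637), ETV4 (-0.04, adjusted p = 0.758) and ETV5 (-0.22, adjusted p = 0.185). DUSP4 and SPRY1 had few counts. DUSP4 had 34, 56 and 73 counts in WT and 37, 30 and 20 in MLST8-KO replicates 1 to 3, and its groups overlapped. SPRY1 had 18, 21 and 11 counts in WT and 26, 32 and 45 in MLST8-KO replicates 1 to 3. FOSL1, DUSP5, SPRY4, PHLDA1 and SPRED1 were called with each sample left out. IER3 was lost without WT replicate 2 (adjusted p = 0.0692), MLST8-KO replicate 1 (0.0624) or MLST8-KO replicate 2 (0.0545). DUSP4 was lost without any sample but WT replicate 1, with adjusted p of 0.101 and 0.112 without WT replicates 2 and 3 and of 0.0571, 0.104 and 0.127 without MLST8-KO replicates 1, 2 and 3. SPRY1 was lost in all 6 such fits, with adjusted p of 0.0550, 0.0729 and 0.132 without WT replicates 1, 2 and 3 and of 0.0644, 0.0905 and 0.166 without the same MLST8-KO replicates. DUSP4 was not called on log2(TPM + 1) (adjusted p = 0.0822, log2 fold change -0.42) or log2(TPM + 0.1) (0.0875), and SPRY1 was not called with DESeq2 (0.0823) or with no filter (0.0548).

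**Figure D5:**
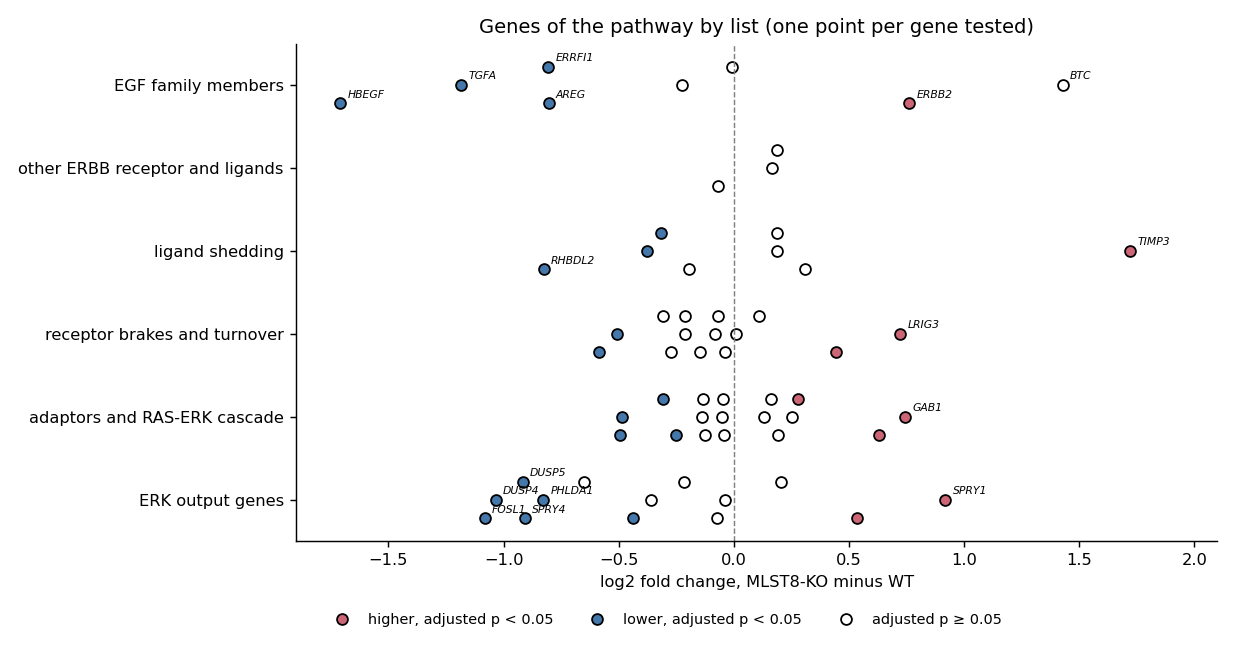
edgeR log2 fold change (MLST8-KO minus WT) of each tested gene, by list, in rows, with red and blue for adjusted p under 0.05 higher and lower and open circles for the rest. The ERK output row has 6 genes filled blue and 2 filled red, and the row of other receptors and ligands has none filled.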

How the data were processed

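RNA-seq samples were grouped by their labels (3 WT, 3 MLST8-KO). The authors aligned reads to GRCh38 with HISAT and assigned them with Bowtie2 (versions not given in the sources used here). They deposited estimated counts (not normalized) and TPM and FPKM values, both scaled by gene length and by depth. Another table by the authors, with the fold changes and p and q values of their own comparison, was not used. As 12.4% of the estimated counts were not whole, they were rounded; the design had assumed whole counts. The quasi-likelihood test of edgeR 4.0.16 was run in R 4.3.3 (TMM, filterByExpr, glmQLFit and glmQLFTest, Benjamini-Hochberg adjustment over 12951 genes, threshold 0.05). As alternatives, DESeq2 1.42.0 was run, then limma 3.58.1 on log2(TPM + 1) and log2(TPM + 0.1), other scalings and filters, a replicate block and leaving out samples. Replicates differed by more than sampling noise (chi-square per gene 6.71 to 25.2). The 10 members and all gene lists were chosen with earlier results of these data known. Named genes are the members, MLST8, called genes of each list, at most 4 others per list with the highest counts, and the 3 genes most like each member. Coordinates are from GENCODE, promoters from RefSeq, and figures were drawn with matplotlib 3.10.9. Some items are not reported here.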

Additional observations from a re-analysis of the deposited data

How the results depend on the processing

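HBEGF, TGFA, ERRFI1, ERBB2 and MLST8 kept their direction and their call under all 15 alternatives, with log2 fold changes of -1.94 to -1.54, -1.36 to -1.04, -0.95 to -0.67, 0.71 to 0.87 and -1.19 to -0.86. BTC joined ERBB2 among the higher members, giving 2, with DESeq2, upper quartile scaling and no filter; leaving out single samples gave 1 to 2 higher and 3 to 4 lower members, the lost one being AREG. EGFR, not called in any of these, turned to 0.11 with limma on log2(TPM + 1), 0.12 on log2(TPM + 0.1) and 0.048 with upper quartile scaling. With single samples left out, EGFR ranged from -0.11 to 0.072 (0.023, 0.017 and 0.072 without WT replicate 2, MLST8-KO replicate 1 or MLST8-KO replicate 3). Over all genes limma called 2782 higher and 1134 lower on log2(TPM + 1), and 2764 and 1132 on log2(TPM + 0.1), where the share of higher calls was 71.0% and 70.9% against 51.0%, and upper quartile scaling gave 62.0%; these scalings moved the median log2 fold change to 0.09, 0.10 and 0.06. Leaving out single samples gave 971 to 2692 higher and 850 to 2651 lower genes, and 3 to 8 higher and 7 to 22 lower pathway genes, the fewest lower without MLST8-KO replicate 1. Same-numbered samples had deviations correlated at 0.105, 0.0565 and 0.140, so the numbers were not taken as pairs, although each sample correlated best with its own number; the replicate block called 2261 higher and 2157 lower genes, with 1 higher and 4 lower members and 8 higher and 16 lower pathway genes, and ended the calls of DUSP4 (adjusted p = 0.0567) and SPRY1 (0.0673). The cause of these shifts was not tested. The 3 samples per group limit precision, and BTC, EPGN and EREG are limited by depth.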
